A study of Zea mays with 18 samples.

Results

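Leaves high and low on densely planted maize were compared in 6 of the 18 RNA-seq libraries of a canopy study. The upper leaf, group HA, is the third leaf above the ear and the lower leaf, group HB, is the third leaf below it, each with 3 libraries chosen by their titles. Both groups come from the hybrid Xianyu 335 at grain filling, grown under otherwise normal conditions at high plant density. The ear leaf at high density, group HE, and the upper (LA) and lower (LB) leaves titled low density, each with 3 libraries, are used here to place the difference between HA and HB. All 18 libraries, with the ear leaf titled low density (LE) among them, also set the spread behind the p-values. The labels give neither the planting density in plants per area nor the number of plants behind a library, and nothing says that replicates are different plants; p-values here therefore rest on library-to-library spread that may be technical. The values are RPKM, read counts scaled by gene length and library size, and 21184 of 31855 gene models reached at least 1 RPKM in at least 3 of the 18 libraries and were tested.

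As background, maize fixes carbon by the C4 pathway, in which mesophyll cells capture carbon dioxide with phosphoenolpyruvate carboxylase and pass it as malate to bundle sheath cells, where Rubisco fixes it again. During grain filling the ear draws sugar from the leaves and nitrogen from their proteins, and the lowest, most shaded leaves are usually the first to age. Leaf ageing takes apart chlorophyll, chloroplast proteins and lipids, and genes of these steps serve as its markers.

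The upper and lower leaves differed in the level of a large share of all genes. Of the 21184 genes tested, 9308 (43.9%) were called, that is, they had a limma adjusted p under 0.05, and 3294 (15.5%) were higher in HA and 6014 (28.4%) lower. A log2 difference of at least 1 was found in 1447 genes called higher and 1926 called lower, and one of at least 3 in 94 and 122. The 3 HA libraries lay apart from the 3 HB libraries, with no overlap, in 54.8% of the genes tested, with HA above in 18.8% and below in 36.1%. The median log2 difference over all genes tested was -0.15, so the split between higher and lower rests on the scale. After median-ratio rescaling 4456 genes were called higher and 4385 lower, and after quantile normalization 4537 and 4571. Counts of called list members below are to be read against the shares over all genes, 15.5% higher and 28.4% lower. The medians of the gene lists below are log2 differences, HA minus HB, to be read against that value of -0.15, which has been subtracted where a median is called relative to all genes.

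Within HA the libraries correlated at 0.976 to 0.979 on the log2 scale over the genes tested, within HB at 0.97 to 0.976, and across the groups at 0.857 to 0.916. One HA library, replicate 3, correlated more closely with an LA library (0.982) than with its own group. The summed RPKM of these 6 libraries lay between 566489 and 590489, and 26488 to 27050 genes were above 0. The 10 most abundant genes took 6.18% to 7.39% of the sum in HA and 4.64% to 5.92% in HB. Read totals are not in the sources used here, and a relative depth recovered from 150 rare genes ranged from 0.886 in HB replicate 1 to 1.12 in HA replicate 2. Genes of epidermis and shoot meristem, looked at as signs of other tissue, were at similar levels, with none of the 4 tested called and a summed level of 31.4 to 39.3 RPKM in HA and 34.9 to 41.7 RPKM in HB.

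**Figure D1:**
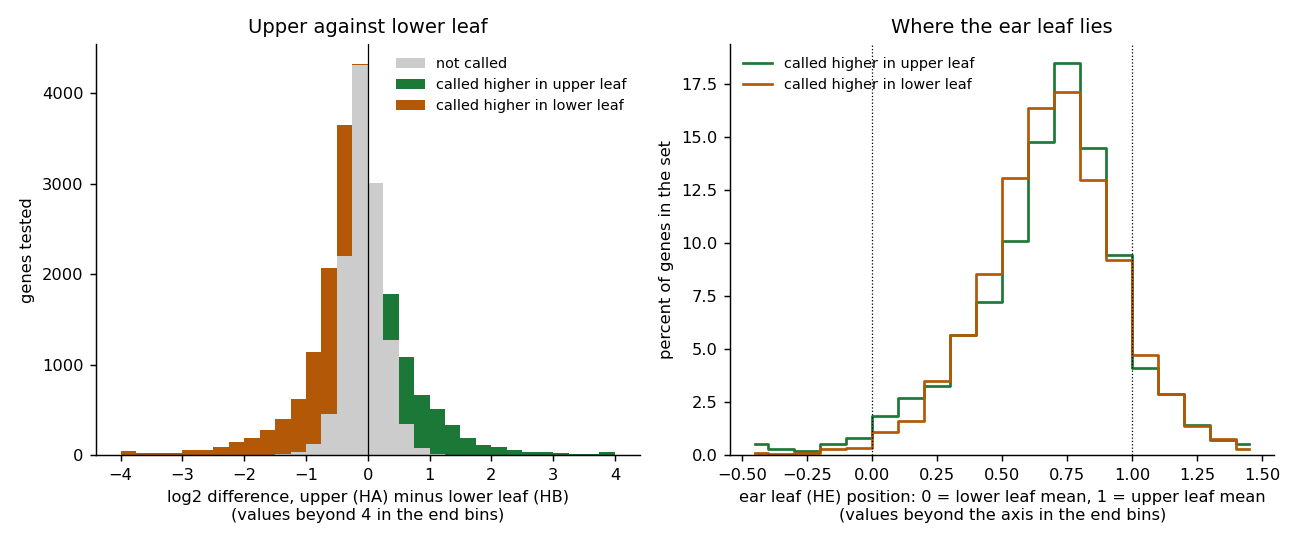
Left, number of genes tested by log2 difference between the upper (HA) and lower (HB) leaf, with genes called in each direction in colour and the rest in grey. Right, share of the called genes by where the ear leaf (HE) mean lies on the log2 scale between the lower (0) and upper (1) leaf means, with both sets of called genes having their peak nearer the upper leaf.

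The C4 shuttle genes named here for its mesophyll side separated the leaves. PEPC1 (GRMZM2G083841), also listed as pep1, encodes the phosphoenolpyruvate carboxylase that makes the first fixation, and stood at 4704, 4747 and 5513 RPKM in the 3 HA libraries and at 618, 461 and 374 RPKM in the 3 HB libraries. All 3 upper-leaf values were far above all 3 lower-leaf values, a log2 difference of 3.39 (SE 0.32, limma adjusted p = 1.25e-06). Ppdk1 (GRMZM2G306345), pyruvate phosphate dikinase, which regenerates the acceptor of that reaction, was at 6470.4, 5747 and 5676 RPKM in HA and 2225, 1447 and 1875 RPKM in HB, again with no overlap, a log2 difference of 1.71 (SE 0.30, limma adjusted p = 0.000248). mdh6 (GRMZM2G129513), the chloroplast malate dehydrogenase, averaged 1117 ± 199 (SD, n = 3) against 331 ± 34.1 RPKM, a log2 difference of 1.74 (SE 0.20, limma adjusted p = 6.23e-06). PPCK1 (GRMZM2G178074), whose product phosphorylates phosphoenolpyruvate carboxylase, was higher in HA as well, at 10.3 ± 5.65 against 2.08 ± 1.19 RPKM, a log2 difference of 1.97 (SE 0.39, limma adjusted p = 0.000634).

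Of the 3 bundle sheath markers tested, none was called, and they do not stand for all genes of these cells. NADP-ME (GRMZM2G085019), the malic enzyme that releases carbon dioxide in the bundle sheath, was at 409, 641 and 502 RPKM in HA and 804, 456 and 463 RPKM in HB. These ranges overlapped, and the log2 difference of -0.12 (SE 0.24, limma adjusted p = 0.711) has no settled sign, since it was 0.037 after median-ratio rescaling, 0.035 without HA replicate 1 and 0.15 without HB replicate 1. Both gene models named rbcS, for the small subunit of Rubisco, match a single RefSeq gene name, so reads may be split between them. GRMZM2G113033 averaged 388 ± 81.1 against 264 ± 73.1 RPKM, a log2 difference of 0.57 (SE 0.30, limma adjusted p = 0.134), and GRMZM2G098520 averaged 141 ± 37.8 against 122 ± 31.7 RPKM, a log2 difference of 0.21 (SE 0.29, limma adjusted p = 0.576). Neither was called, and their libraries overlapped between the leaves.

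Summed over the mesophyll markers PEPC1, Ppdk1 and mdh6, the level was 12504, 11431 and 12273 RPKM in HA and 3172, 2206 and 2615 RPKM in HB. Summed over the bundle sheath markers NADP-ME and the rbcS models, it was 804, 1212 and 1123 RPKM in HA and 1301, 751 and 828 RPKM in HB. Between HA and HB the mesophyll sums lay wholly apart and the bundle sheath sums overlapped. In the ear leaf (HE) the mesophyll sums were 11153, 9098 and 9515 RPKM. The bundle sheath sums there were 1738, 1529 and 1853 RPKM, above all those of HA and HB. Both sums cover only the markers named, which were chosen with earlier results of these data known, and not all genes of either cell type. Other genes planned as markers are not in them, such as the mesophyll genes ca1 and ca2 and the bundle sheath genes pck1 and prk1. In whole leaves, fewer cells of a type and less RNA per cell cannot be told apart. Over the whole C4 shuttle list, 8 of 15 tested members were called higher in HA, 1 lower and 6 not called. The median log2 difference was 1.14, or 1.29 relative to all genes. The lower call was lost without HA replicate 3, without any 1 of the HB replicates, with no filter, with a replicate block and after either rescaling.

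In the Calvin cycle and Rubisco list, 3 of 8 tested genes were called higher, 0 lower, and the median was 0.48. The A and B subunits of chloroplast glyceraldehyde-3-phosphate dehydrogenase, which reduces the fixed carbon, were among those higher in HA. gpa1 (GRMZM2G337113) was at 953, 1268 and 1438 RPKM in HA and 448, 289 and 378 RPKM in HB, a log2 difference of 1.71 (SE 0.29, limma adjusted p = 0.0002). gpb1 (GRMZM5G845611) was at 805, 744 and 1348 RPKM in HA and 193, 111 and 162 RPKM in HB, a log2 difference of 2.62 (SE 0.37, limma adjusted p = 4.3e-05). Neither gene's groups overlapped.

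Light harvesting genes were mostly higher in the upper leaf, with an exception of high abundance. Among 6 tested antenna genes 5 were called higher and 1 lower, with a median of 1.16 (1.31 relative to all genes). Their summed level was not higher in HA throughout. Over the 7 listed members it was 1805, 3575 and 2543 RPKM in HA and 3089, 2590 and 2908 RPKM in HB. lhcb3 (GRMZM2G155216), a light-harvesting protein of photosystem II, was at 198, 262 and 467 RPKM in HA and 31.7, 11.6 and 31.8 RPKM in HB, a log2 difference of 3.64 (SE 0.47, limma adjusted p = 1.82e-05) with no overlap. lhcb6 (GRMZM2G092427), another photosystem II antenna protein, averaged 92.1 ± 34.7 against 11.5 ± 4.16 RPKM, a log2 difference of 2.95 (SE 0.45, limma adjusted p = 7.65e-05). The antenna gene cab-m1 (GRMZM2G351977) went the other way, at 759, 1896 and 832 RPKM in HA and 2537, 2194 and 2246 RPKM in HB. Its log2 difference was -1.13 (SE 0.36, limma adjusted p = 0.0181), and the call rested on single libraries, with an adjusted p of 0.0874 without HA replicate 1, 0.0827 without HA replicate 3 and 0.051 without HB replicate 1.

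Of the 15 tested genes of photosystem subunits and electron transport, 12 were called higher in HA and 1 lower (median 1.24, 1.39 relative to all genes). psbs1 (GRMZM2G077333), the photosystem II subunit that allows surplus light energy to be shed as heat, was at 711, 480.3 and 625 RPKM in HA and 95.8, 55.9 and 84.4 RPKM in HB. These groups were widely separated, with a log2 difference of 2.95 (SE 0.33, limma adjusted p = 5.71e-06). FdI (GRMZM2G122337), a leaf ferredoxin that carries electrons from photosystem I, averaged 329.7 ± 50.1 against 53.3 ± 17.8 RPKM, a log2 difference of 2.66 (SE 0.44, limma adjusted p = 0.000148). The gene model GRMZM2G121494, named PGR5 for a protein of cyclic electron flow, averaged 32.1 ± 6.46 against 4.41 ± 2.36 RPKM, a log2 difference of 2.82 (SE 0.31, limma adjusted p = 3.95e-06); it shares its RefSeq gene with another model, so its level is uncertain. The member called lower was fnr1 (GRMZM2G058760), by name a ferredoxin-NADP reductase, at 9.94 ± 0.30 against 20.9 ± 2.47 RPKM and a log2 difference of -1.03 (SE 0.17, limma adjusted p = 0.000118).

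**Figure D2:**
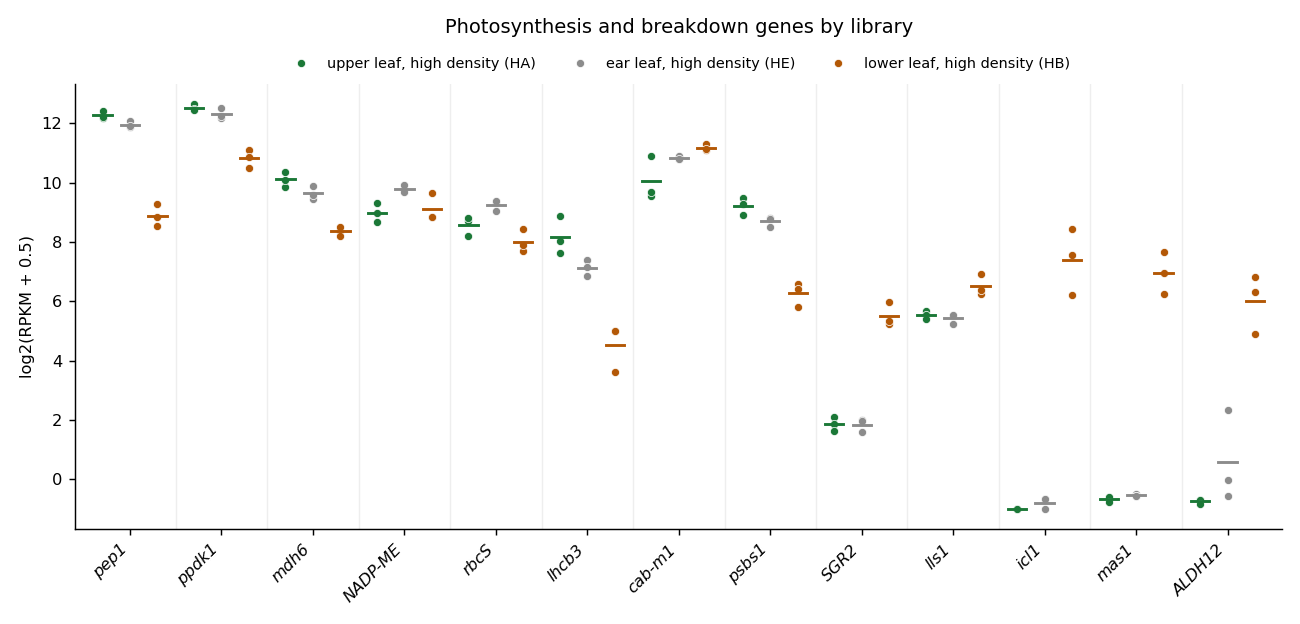
Level of 13 genes as log2(RPKM + 0.5) in each library of the upper leaf (HA), ear leaf (HE) and lower leaf (HB) at high density, with points for libraries and bars for means. The mesophyll genes pep1, ppdk1 and mdh6 are high in HA and low in HB. NADP-ME and rbcS overlap between HA and HB. The genes icl1 and mas1 stand near 0 RPKM in HA and HE and high in HB.

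Genes that build the photosynthetic machinery followed its subunits. All 12 tested genes of photosystem assembly and thylakoid import were called higher in HA, with log2 differences of 0.56 to 1.59 and a median of 0.92. They include PSA2 (GRMZM2G021687), needed for photosystem I assembly, at 179, 149 and 192 RPKM in HA and 73.4, 62.1 and 65.1 RPKM in HB, a log2 difference of 1.36 (SE 0.14, limma adjusted p = 2.73e-06). FtsH2B (GRMZM2G087598), of a thylakoid protease family that clears damaged photosystem II protein, averaged 555 ± 116 against 222 ± 14.5 RPKM, a log2 difference of 1.3 (SE 0.19, limma adjusted p = 6.1e-05). In both genes every HA library exceeded every HB library.

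Nuclear genes for plastid gene expression moved in the same direction, with 18 of 20 tested called higher, 0 called lower and a median of 1.02 (1.17 relative to all genes). Their log2 differences ran from 0.09 to 1.47, a narrower span than the -1.13 to 3.64 of the antenna genes, whose median of 1.16 was close. PPR10 (GRMZM2G177169), which protects the ends of certain plastid transcripts, averaged 27.7 ± 3.64 against 9.71 ± 1.55 RPKM, a log2 difference of 1.47 (SE 0.20, limma adjusted p = 2.38e-05). CRS2 (GRMZM2G132021), a factor of plastid intron splicing, averaged 45.4 ± 4.7 against 16.9 ± 1.22 RPKM, a log2 difference of 1.39 (SE 0.15, limma adjusted p = 4.37e-06). ORRM1 (GRMZM5G899787), a plastid RNA editing factor, averaged 55.3 ± 5.66 against 23 ± 0.737 RPKM, a log2 difference of 1.24 (SE 0.13, limma adjusted p = 2.31e-06).

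Chlorophyll synthesis had 3 of 5 tested genes called higher and 1 lower (median 0.83). ChlI (GRMZM2G419806), a subunit of the magnesium chelatase that commits the pathway to chlorophyll, was at 133, 154 and 190.0 RPKM in HA and 64.3, 49 and 51 RPKM in HB, a log2 difference of 1.53 (SE 0.20, limma adjusted p = 1.75e-05). DVR (GRMZM2G063048), divinyl reductase, averaged 23.6 ± 1.38 against 6.23 ± 0.387 RPKM, a log2 difference of 1.84 (SE 0.23, limma adjusted p = 1.13e-05). Both protoporphyrinogen oxidase genes were called in opposite directions, prpo1 (GRMZM2G039396) with a log2 difference of 0.83 (adjusted p = 4.15e-05) and prpo2 (GRMZM2G364901) with -0.67 (adjusted p = 0.000689).

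Chlorophyll breakdown ran the other way. SGR2 (GRMZM2G091837), a stay-green protein that removes magnesium from chlorophyll, was at 3.8, 3.16 and 2.6 RPKM in HA and 36.7, 39.7 and 62.7 RPKM in HB. The lower-leaf libraries were all far above the upper-leaf ones, and the log2 difference was -3.64 (SE 0.28, limma adjusted p = 1.74e-07). lls1 (GRMZM2G339563), pheophorbide a oxygenase, which opens the chlorophyll ring, was at 51.1, 45.8 and 41.9 RPKM in HA and 75, 82.8 and 121 RPKM in HB, a log2 difference of -0.97 (SE 0.14, limma adjusted p = 5.59e-05). Of the 4 gene models listed, only these 2 were tested. The other members are a pair of models named SGR1 that match a single RefSeq gene and stayed below the filter, the higher of them, GRMZM2G103881, at 0.0853 ± 0.0735 RPKM in HA and 1.91 ± 1.12 RPKM in HB.

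The glyoxylate cycle, which turns acetate units from lipids into four-carbon acids, held the named gene with the largest fall. icl1 (GRMZM2G056369), isocitrate lyase, was listed at 0 in all 3 HA libraries and at 73.1, 190.5 and 344 RPKM in HB, with an adjusted p of 6.29e-10 (limma). No fold is given for icl1, since HA was at 0. mas1 (GRMZM2G102183), malate synthase, was at 0.145, 0.154 and 0.0898 RPKM in HA and 76.1, 124 and 201 RPKM in HB, a log2 difference of -7.63 (SE 0.28, limma adjusted p = 8.09e-11). The ear leaf was also close to 0, at 0, 0.121 and 0.124 RPKM for icl1 and 0.213, 0.167 and 0.171 RPKM for mas1, so among the leaves at high density only the lower leaf had an appreciable level. ALDH12 (GRMZM2G090245), of the aldehyde dehydrogenase family that in Arabidopsis works in proline breakdown, had a like pattern at 0.118, 0.108 and 0.0549 RPKM in HA and 29.5, 78.8 and 113 RPKM in HB, a log2 difference of -6.77 (SE 0.65, limma adjusted p = 1.35e-06); it shares its RefSeq gene with another model. Where a leaf is near 0 RPKM, the 0.5 added before taking logs sets part of the value. With 0.1 or 1 added instead, the log2 difference was -9.09 or -6.79 for mas1, -8.39 or -5.9 for ALDH12 and 6.49 or 3.75 for MYBR47, a transcription factor described below. For MYBR41, MYBR87, whp1, wip1, AGA3b, bHLH116, HYD1, WRKY104, gol1 and bZIP61, the fold behind the log2 difference also moved by over 1.5 times. None of these genes lost its call or changed direction.

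Autophagy genes, which carry cell contents to the vacuole, were called lower in the upper leaf more often than higher, by small amounts. Of 13 tested members, 10 were called lower in HA and 0 higher, with a median of -0.45, or -0.29 relative to all genes. The count fell to 6 without HA replicate 3, to 5 without HB replicate 3 and to 5 after median-ratio rescaling. Atg7 (GRMZM2G005304), an enzyme that activates the proteins conjugated in autophagosome growth, was at 10.3, 9.78 and 8.92 RPKM in HA and 16.8, 21.8 and 23.2 RPKM in HB, a log2 difference of -1.04 (SE 0.20, limma adjusted p = 0.000469). Atg4b (GRMZM2G173682) and ATG3 (GRMZM5G818887), of the same conjugation system, had log2 differences of -0.86 (adjusted p = 4.4e-05) and -0.85 (adjusted p = 9.5e-05).

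Among 8 tested cysteine and vacuolar proteases, 6 were called lower in HA and 0 higher (median -0.70). That count was 3 without HA replicate 1, without HB replicate 1 or without HB replicate 3, and 3 after median-ratio rescaling. vpe1 (GRMZM2G463291), a vacuolar processing enzyme, was at 0.527, 1.92 and 0.521 RPKM in HA and 5.43, 6.83 and 8.09 RPKM in HB, a log2 difference of -2.4 (SE 0.42, limma adjusted p = 0.000262). mir2 (GRMZM2G150256), a cysteine protease, averaged 62.4 ± 10.5 against 103 ± 7.01 RPKM, a log2 difference of -0.74 (SE 0.14, limma adjusted p = 0.000483). Cystatins, which inhibit such proteases, were mixed, with 1 of 6 tested called higher, namely cc3 (GRMZM2G440968) at 1.15 (adjusted p = 0.000257), and 2 lower, of which cc5 (GRMZM2G024264) reached -0.58 (adjusted p = 0.000262), and with a median of -0.12. The cystatin count called lower was 1 without HA replicate 2 or 3, without HB replicate 2 or 3 and after either rescaling, and the count called higher was 2 without HA replicate 2 and after either rescaling.

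Nitrogen genes were called in both directions, as were genes in general, with 15.5% of all genes tested called higher and 28.4% lower. 6 of 17 tested members were called higher in HA and 5 lower, with a median of -0.08 that lies near the median of all genes. The lower count was 3 without HA replicate 3 and 3 after median-ratio rescaling. The enzymes that reduce nitrate were among the higher ones. NNR1 (GRMZM2G568636), nitrate reductase, was at 41.3, 54.2 and 46.1 RPKM in HA and 6.19, 9.09 and 7.53 RPKM in HB, a log2 difference of 2.56 (SE 0.16, limma adjusted p = 2.8e-08). NIR (GRMZM2G079381), nitrite reductase, was at 29.7, 30.01 and 43.3 RPKM in HA and 3.88, 5.67 and 6.62 RPKM in HB, a log2 difference of 2.57 (SE 0.22, limma adjusted p = 4.85e-07). Both were separated without overlap. Among the glutamine synthetases, which fix ammonium into glutamine, GS1-5 (GRMZM2G046601) had a log2 difference of 1.22 (adjusted p = 0.00849) and gln5 (GRMZM2G036464) one of -0.59 (adjusted p = 0.000424).

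Sucrose and starch genes were also divided, with 9 of 28 tested called higher, 5 lower and a median of 0.21 (0.36 relative to all genes). The higher count was 14 after quantile normalization. sps1 (GRMZM5G875238), sucrose phosphate synthase, which makes sucrose in leaves, was at 303, 336 and 273 RPKM in HA and 74.4, 63.5 and 52.9 RPKM in HB, a log2 difference of 2.26 (SE 0.15, limma adjusted p = 4.03e-08). The starch synthase genes ss1 (GRMZM2G129451) and GBSSIIa (GRMZM2G008263) were higher too, with log2 differences of 1.67 (adjusted p = 3.7e-06) and 3.0 (adjusted p = 1.73e-05).

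The sucrose synthases sh1 and sus1 were lower in the upper leaf, where sps1 was higher. sh1 (GRMZM2G089713), a sucrose synthase that splits sucrose, was at 23.2, 31.5 and 21.5 RPKM in HA and 134, 148 and 158 RPKM in HB, a log2 difference of -2.52 (SE 0.28, limma adjusted p = 4.55e-06). sus1 (GRMZM2G152908), another sucrose synthase, averaged 76.2 ± 28.6 against 120.1 ± 12.3 RPKM, a log2 difference of -0.71 (SE 0.19, limma adjusted p = 0.00572). Agp2 (GRMZM2G106213), a subunit of ADP-glucose pyrophosphorylase, which supplies starch synthesis, was also lower in HA at 4.22 ± 0.931 against 22.6 ± 4.77 RPKM, a log2 difference of -2.29 (SE 0.29, limma adjusted p = 1.31e-05).

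Carotenoid, isoprenoid and tocopherol genes were mostly higher in the upper leaf, with 15 of 20 tested called higher and 4 lower (median 0.79). psy2 (GRMZM2G149317), phytoene synthase, the entry step of carotenoids, was at 15.4, 11.2 and 11.9 RPKM in HA and 1.58, 0.997 and 1.02 RPKM in HB, a log2 difference of 2.98 (SE 0.33, limma adjusted p = 5.22e-06). HYD1 (GRMZM2G164318), by name a carotene hydroxylase, averaged 8.23 ± 3.56 against 0.184 ± 0.0594 RPKM, a log2 difference of 3.59 (SE 0.32, limma adjusted p = 6.59e-07). The pair of deoxyxylulose phosphate synthases, which start the plastid isoprenoid route, split: dxs1 (GRMZM2G137151) averaged 11.9 ± 4.72 against 1.07 ± 0.323 RPKM, a log2 difference of 2.93 (adjusted p = 2.18e-05), and dxs2 (GRMZM2G493395) averaged 4.36 ± 1.18 against 32.8 ± 8.59 RPKM, a log2 difference of -2.77 (adjusted p = 0.000321). The tocopherol synthesis genes called lower in HA include VTE2-1 (GRMZM2G048472) with -1.34 (adjusted p = 4.99e-06) and hppd1 (GRMZM2G088396) with -0.73 (adjusted p = 0.00379).

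Antioxidant enzymes had 8 of 15 tested called higher and 2 lower, with a median of 0.55. fsd1 (GRMZM5G864424), an iron superoxide dismutase of the chloroplast, was at 25.8, 17.7 and 20.6 RPKM in HA and 11.1, 9.27 and 9.7 RPKM in HB, a log2 difference of 1.04 (SE 0.14, limma adjusted p = 3.01e-05). The catalases differed from each other, with cat2 (GRMZM2G090568) at 208 ± 38.3 against 80.6 ± 10.6 RPKM, a log2 difference of 1.36 (adjusted p = 1.73e-05), and cat1 (GRMZM2G088212) at 111 ± 14.2 against 165 ± 5.58 RPKM, a log2 difference of -0.58 (adjusted p = 0.000304). gor1 (GRMZM2G172322), glutathione reductase, had a log2 difference of 1.08 (adjusted p = 4.03e-06).

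**Figure D3:**
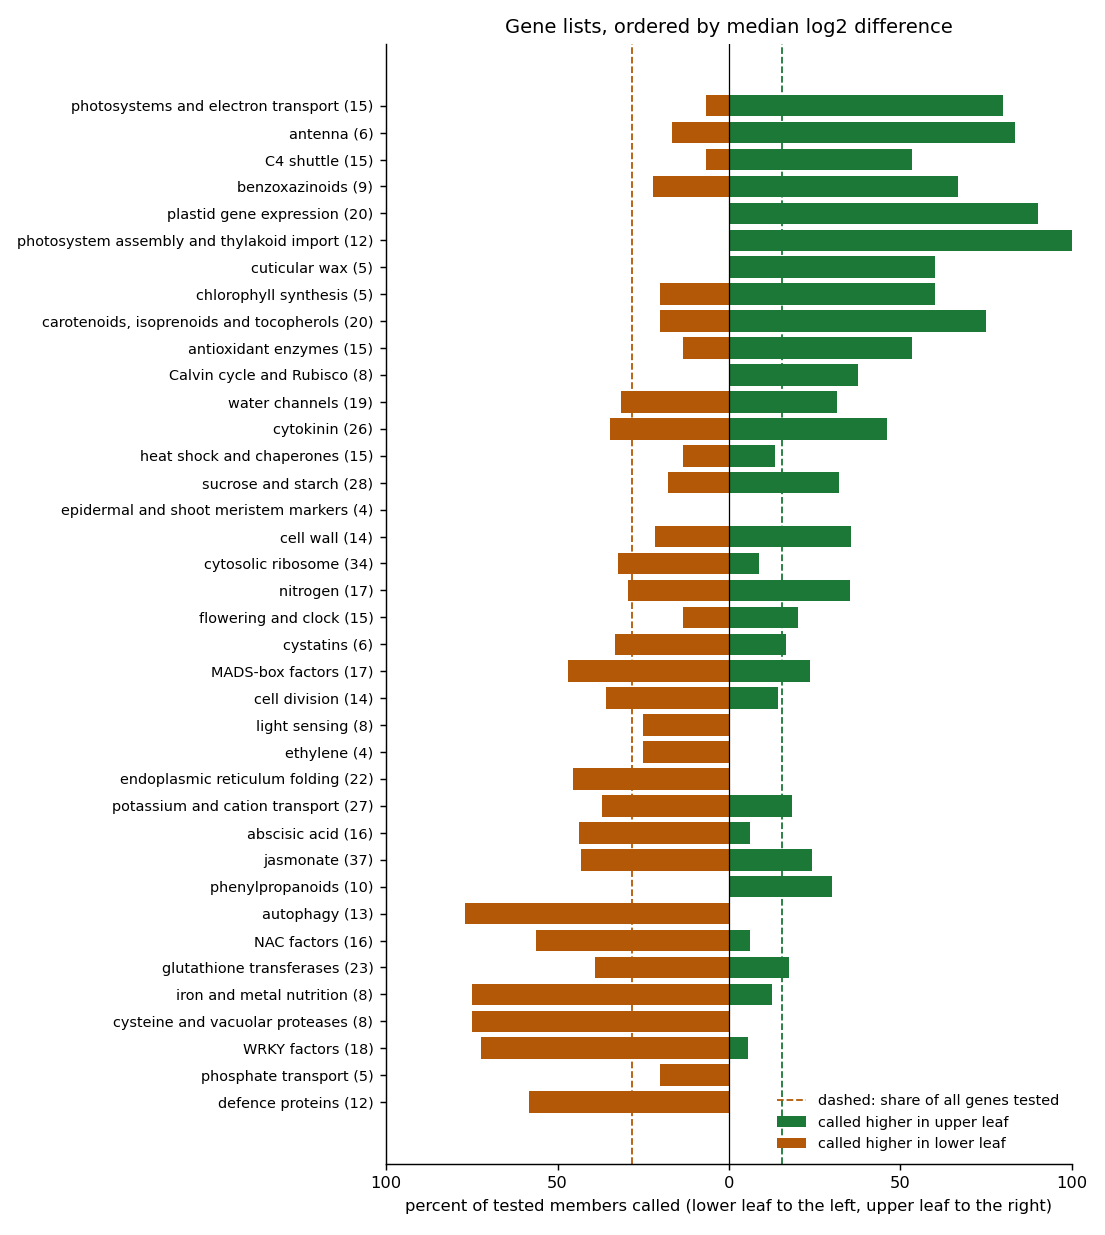
Share of the tested members of each gene list (number tested in brackets) called higher in the upper leaf, to the right, or in the lower leaf, to the left, with lists ordered by their median log2 difference. Dashed lines give the shares over all genes tested, 15.5% higher and 28.4% lower in the upper leaf. Photosystem, antenna and plastid lists are among those that pass the right line, as do benzoxazinoid and cytokinin lists. Autophagy, protease, WRKY and NAC lists are among those that pass the left one, as do defence, iron and MADS-box lists.

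NAC and WRKY transcription factors, families often linked to leaf ageing, were called lower in the upper leaf more often than higher. 9 of 16 tested NAC factors were called lower in HA and 1 higher (median -0.45, -0.30 relative to all genes). NAC75 (GRMZM2G100583) was at 55.9, 85.5 and 63.7 RPKM in HA and 197, 169.9 and 207 RPKM in HB, a log2 difference of -1.5 (SE 0.18, limma adjusted p = 9.59e-06), and NAC61 (GRMZM2G003715) averaged 2.93 ± 0.683 against 11.9 ± 2.18 RPKM, a log2 difference of -1.86 (adjusted p = 5.84e-06). NAC95 (GRMZM5G813651) was the member called higher, with 1.12 (adjusted p = 0.000764). Of 18 tested WRKY factors, 13 were called lower and 1 higher (median -0.71, -0.56 relative to all genes). The higher call was lost without HA replicate 3 or without HB replicate 3. WRKY104 (GRMZM2G169149) was at 0.215, 0.147 and 0.847 RPKM in HA and 1.86, 12.6 and 9.42 RPKM in HB, a log2 difference of -2.98 (SE 0.46, limma adjusted p = 8.6e-05), and WRKY111 (GRMZM2G013391) averaged 25.3 ± 7.02 against 76.5 ± 16.7 RPKM, a log2 difference of -1.59 (adjusted p = 0.000285).

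The largest rises among named genes were transcription factors. Only 1949 of the 21184 genes tested had a symbol. Some genes without one rose more, such as GRMZM2G355752 with a log2 difference of 6.23 and GRMZM2G179810 with 6.0. MADS15 (GRMZM2G553379), a MADS-box factor, was at 55.2, 51.7 and 53.6 RPKM in HA and 0.938, 0.796 and 0.945 RPKM in HB, a log2 difference of 5.28 (SE 0.24, limma adjusted p = 6.29e-10). m4 (GRMZM2G032339), of the same family, was at 73.6, 109.8 and 86.3 RPKM in HA and 14.1, 4.75 and 6.74 RPKM in HB, a log2 difference of 3.44 (SE 0.30, limma adjusted p = 5.68e-07). zap1 (GRMZM2G148693), which resembles the Arabidopsis flowering gene APETALA1, averaged 21.5 ± 3.63 against 3.84 ± 0.193 RPKM, a log2 difference of 2.33 (adjusted p = 7.77e-06).

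Other MADS-box genes were graded the opposite way. m20 (GRMZM2G059102) was at 7.6, 5.55 and 6.36 RPKM in HA and 67.2, 57.3 and 67.4 RPKM in HB, a log2 difference of -3.21 (SE 0.25, limma adjusted p = 2.44e-07). SOC1 (GRMZM2G171365), named after an Arabidopsis flowering gene, averaged 2.04 ± 0.135 against 16.5 ± 1.03 RPKM, a log2 difference of -2.74 (adjusted p = 3.83e-08), and m21 (GRMZM5G814279) had one of -3.16 (adjusted p = 5.68e-07). In all, 4 of 17 tested MADS-box genes were called higher and 8 lower, with a median of -0.14, close to that of all genes.

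Several MYB-related factors, named here for the size of their differences and not as a list, were also higher in the upper leaf. RADIALIS (GRMZM2G114503), named after a floral symmetry gene of snapdragon, was at 166, 167 and 228 RPKM in HA and 9.22, 6.76 and 6.13 RPKM in HB, a log2 difference of 4.58 (SE 0.25, limma adjusted p = 5.79e-09). MYBR87 (GRMZM2G158117) was at 62.7, 28 and 47.1 RPKM in HA and 0.666, 0.484 and 0.24 RPKM in HB, a log2 difference of 5.54 (SE 0.33, limma adjusted p = 1.81e-08). MYBR41 (GRMZM2G150260) averaged 42.9 ± 13.4 against 0.989 ± 0.855 RPKM, a log2 difference of 4.97 (adjusted p = 1.02e-07), and MYBR47 (GRMZM2G117497) averaged 14.2 ± 5.8 against 0.0792 ± 0.137 RPKM, a log2 difference of 4.61 (adjusted p = 1.99e-07). Their groups did not overlap, which the rule that named them required.

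Of the flowering and clock list, 3 of 15 tested were called higher and 2 lower (median -0.09), and the lower count was 1 without HA replicate 1 or without HB replicate 3. The rises include genes related to florigen, the mobile flowering signal made in leaves. ZCN8 (GRMZM2G179264), the main florigen gene of maize, was at 55.8, 55.9 and 87.4 RPKM in HA and 4.92, 2.18 and 4.72 RPKM in HB, a log2 difference of 3.95 (SE 0.29, limma adjusted p = 1.32e-07). ZCN7 (GRMZM2G141756), its close relative, was at 58.1, 52.9 and 74.9 RPKM in HA and 10.9, 4.38 and 5.96 RPKM in HB, a log2 difference of 3.12 (SE 0.27, limma adjusted p = 5.68e-07). Both were separated without overlap, while ZCN11 (GRMZM2G117057) was lower in HA at 2.0 ± 1.99 against 15.2 ± 5.57 RPKM, a log2 difference of -2.87 (adjusted p = 0.000331). Of the 8 tested light-sensing genes, 0 were called higher and 2 lower (median -0.15), among the latter the phytochrome-interacting factor PIF5 (GRMZM2G165042) at -1.08 (adjusted p = 8.38e-05). The count called higher was 2 after median-ratio rescaling or quantile normalization and 1 without HB replicate 3.

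**Figure D4:**
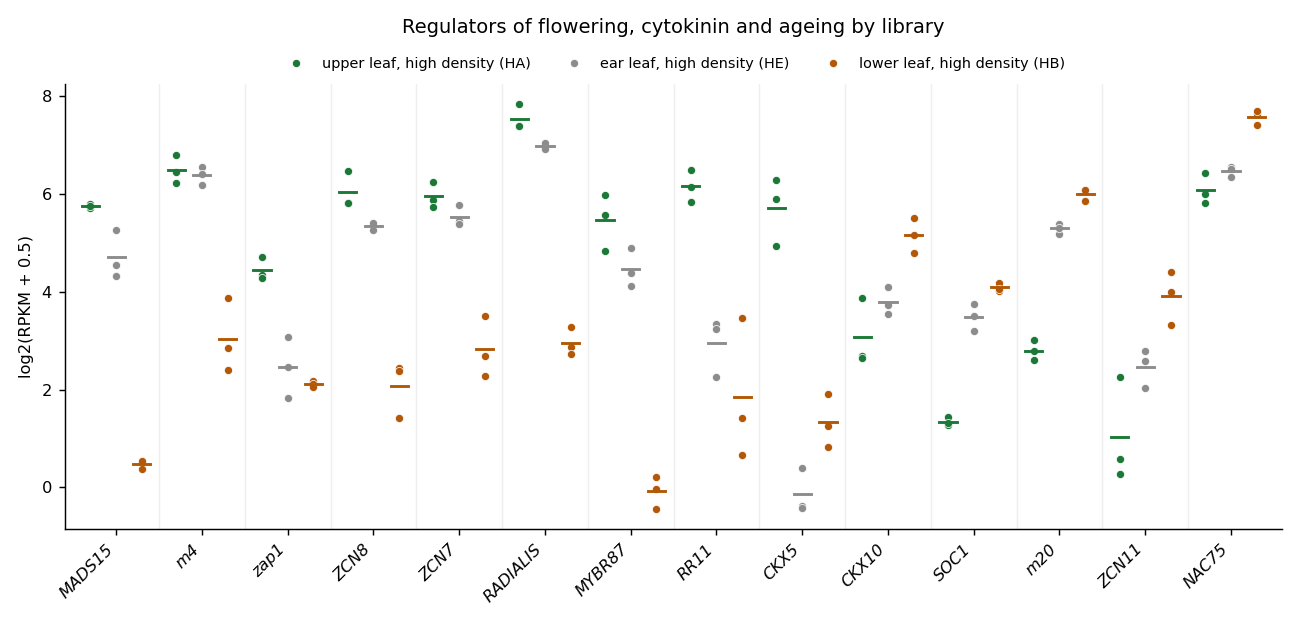
Level of 14 regulatory genes as log2(RPKM + 0.5) in each library of the upper leaf (HA), ear leaf (HE) and lower leaf (HB) at high density, with points for libraries and bars for means. MADS15, ZCN8 and RADIALIS fall from HA through HE to HB, m20 and SOC1 rise along the same order, and CKX5 is lowest in HE.

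Cytokinin genes were called in both directions, against 15.5% higher and 28.4% lower over all genes tested. Of 26 tested members 12 were called higher in HA and 9 lower (median 0.25). CKX5 (GRMZM2G325612), a cytokinin oxidase, which breaks the hormone down, was at 77.9, 29.99 and 58.7 RPKM in HA and 1.88, 1.28 and 3.23 RPKM in HB, a log2 difference of 4.38 (SE 0.61, limma adjusted p = 3.25e-05). RR11 (GRMZM2G040736), a response regulator of cytokinin signalling, was at 56.6, 69.9 and 88.9 RPKM in HA and 2.16, 10.6 and 1.07 RPKM in HB, a log2 difference of 4.31 (SE 0.50, limma adjusted p = 7.5e-06). ciszog1 (GRMZM2G168474), which stores cis-zeatin as a glucoside, had a log2 difference of 2.59 (adjusted p = 8.13e-06).

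Other cytokinin genes were lower in the upper leaf. CKX10 (GRMZM2G348452), another cytokinin oxidase, was at 5.91, 14.1 and 5.76 RPKM in HA and 44.7, 27.3 and 35.2 RPKM in HB, a log2 difference of -2.09 (SE 0.37, limma adjusted p = 0.000265). ZmHK1 (GRMZM2G151223), a cytokinin receptor kinase, averaged 4.01 ± 0.416 against 11.9 ± 3.48 RPKM, a log2 difference of -1.43 (adjusted p = 2.93e-05). The oxidases thus differed among themselves, with CKX5 higher and CKX10 lower in HA.

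In the jasmonate list, 9 of 37 tested genes were called higher and 16 lower (median -0.29), and the lower count was 9 without HA replicate 1. aos1 (GRMZM2G067225), allene oxide synthase, an early enzyme of jasmonate synthesis, was at 7.76, 10.2 and 4.65 RPKM in HA and 89.99, 134 and 80.6 RPKM in HB, a log2 difference of -3.69 (SE 0.47, limma adjusted p = 1.53e-05). The lipoxygenases, which oxidise fatty acids ahead of that step, were split, lox3 (GRMZM2G109130) with -2.99 (adjusted p = 5.43e-05) against lox12 (GRMZM2G106748) with 1.84 (adjusted p = 3.84e-06) and lox6 (GRMZM2G040095) with 1.28 (adjusted p = 0.000647). Abscisic acid genes had 1 of 16 tested called higher and 7 lower (median -0.25), the largest fall named being that of the receptor gene PYL11 (GRMZM2G133613) at -1.31 (adjusted p = 8.29e-05). After median-ratio rescaling these counts were 3 and 5. Of 4 tested ethylene genes 1 was called lower (median -0.15), ACO20 (GRMZM2G126732), an oxidase that makes ethylene, at -1.44 (adjusted p = 0.00516).

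Genes of defence proteins were called lower in the upper leaf more often than higher, with 7 of 12 tested called lower and 0 higher (median -1.19, -1.04 relative to all genes). The lower count was 5 with no filter, after median-ratio rescaling, without HA replicate 1 or 3 and without HB replicate 2 or 3. wip1 (GRMZM2G156632), a wound-induced proteinase inhibitor, was at 0.263, 1.44 and 0 RPKM in HA and 10.5, 23.6 and 33.6 RPKM in HB, a log2 difference of -4.53 (SE 0.67, limma adjusted p = 5.97e-05). MPI (GRMZM2G028393), the maize proteinase inhibitor, was at 39.8, 192 and 22.6 RPKM in HA and 529.5, 790.4 and 589 RPKM in HB, a log2 difference of -3.48 (SE 0.67, limma adjusted p = 0.00054). chn1 (GRMZM2G453805), a chitinase, averaged 81.6 ± 14.8 against 376 ± 79.7 RPKM, a log2 difference of -2.19 (adjusted p = 0.0024).

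Benzoxazinoids, defence compounds of grasses, had 6 of 9 tested pathway genes called higher and 2 lower (median 1.26 relative to all genes). BX4 (GRMZM2G172491) and BX5 (GRMZM2G063756), which encode successive hydroxylases of the core pathway, averaged 37.3 ± 12.3 against 12.2 ± 5.09 RPKM and 16.7 ± 4.05 against 4.02 ± 1.56 RPKM, with log2 differences of 1.6 (adjusted p = 0.000161) and 1.96 (adjusted p = 2.72e-05). bx9 (GRMZM2G161335), a glucosyltransferase that makes the stored form, was lower in HA with -0.70 (adjusted p = 0.000659).

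Glutathione transferases, which attach glutathione to reactive compounds, had 4 of 23 tested called higher and 9 lower (median -0.45). Over all genes 15.5% were called higher and 28.4% lower. Without HA replicate 1 the higher count was 2. The extremes named were gst5 (GRMZM2G308687) at 2.21 (adjusted p = 0.000276) and gst20 (GRMZM2G056388) at -2.58 (adjusted p = 1.36e-05). Among phenylpropanoid genes 3 of 10 tested were called higher and 0 lower, although the median was -0.43. With the 6 HA and HB libraries fitted alone, 5 were called lower. whp1 (GRMZM2G151227), a chalcone synthase of flavonoid synthesis, was at 42.6, 4.17 and 6.95 RPKM in HA and 0.0689, 0.0292 and 0.203 RPKM in HB, a log2 difference of 4.26 (SE 0.67, limma adjusted p = 9.52e-05). Cuticular wax had 3 of 5 tested called higher (median 0.89), and CER1 (GRMZM2G066578), of wax alkane synthesis in Arabidopsis, was at 23.6, 11.4 and 24.8 RPKM in HA and 1.38, 2.41 and 3.42 RPKM in HB, a log2 difference of 2.8 (SE 0.27, limma adjusted p = 1.5e-06).

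Transport genes were called in both directions, as were genes in general, with 15.5% of all genes tested called higher and 28.4% lower. Water channels had 6 of 19 tested called higher and 6 lower (median 0.28), with the plasma membrane channel pip2b (GRMZM2G092125) at 1.78 (adjusted p = 1.48e-06) and another, PIP2-1 (GRMZM2G014914), at -1.52 (adjusted p = 0.000165). Potassium and cation transport had 5 of 27 tested called higher and 10 lower (median -0.20), or 8 and 6 after median-ratio rescaling. HAK1 (GRMZM2G093826), a potassium transporter, was at 45.8, 53.7 and 29 RPKM in HA and 163, 397 and 173 RPKM in HB, a log2 difference of -2.42 (SE 0.32, limma adjusted p = 1.9e-05), whereas HAK11 (GRMZM2G005040), of the same family, had 1.65 (adjusted p = 5.62e-06). Iron and metal genes had 1 of 8 tested called higher and 6 lower (median -0.64), with ysl12 (GRMZM5G893444), of a family that moves iron bound to nicotianamine or phytosiderophores, at -1.13 (adjusted p = 1.99e-05). Of 5 tested phosphate transporters 1 was called lower (median -0.76), a call lost without HA replicate 3 or without HB replicate 3. Outside these lists, PAPhy (GRMZM2G134054), a purple acid phosphatase that releases phosphate from phytate, was at 0.954, 1.83 and 0.838 RPKM in HA and 15.6, 36.6 and 32.7 RPKM in HB, a log2 difference of -4.03 (SE 0.37, limma adjusted p = 9.98e-07).

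Cytosolic ribosomal proteins had 3 of 34 tested called higher and 11 lower (median -0.07), against 15.5% and 28.4% over all genes. A pair of gene models for ribosomal protein L19 was called in opposite directions, RPL19 (GRMZM5G887054) at -1.27 (adjusted p = 2.74e-05) and rpl19 (GRMZM2G171444) at 1.12 (adjusted p = 0.000274). Protein folding in the endoplasmic reticulum had 0 of 22 called higher and 10 lower (median -0.18; 3 higher and 8 lower after median-ratio rescaling), and heat shock genes 2 and 2 of 15 (median 0.21). The heat shock count called higher was 6 after median-ratio rescaling, 1 without HB replicate 1 and 0 without HA replicate 3 or without HB replicate 3.

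Cell division had 2 of 14 tested called higher and 5 lower (median -0.15). Among the higher ones was RNRS1 (GRMZM2G060163), a subunit of the ribonucleotide reductase that supplies DNA building blocks, at 1.81 (adjusted p = 6.42e-07). cyclin4 (GRMZM2G310115) had a log2 difference of -1.31 (adjusted p = 1.27e-05). Cell wall genes had 5 of 14 called higher and 3 lower (median 0.15 relative to all genes), and the higher count was 2 without HA replicate 1 or without HB replicate 1 and 3 without HA replicate 3 or without HB replicate 3. The cellulose synthase gene cesa3 (GRMZM2G039454) was among those higher, at 0.74 (adjusted p = 0.00156).

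Among the named genes with the largest differences are also some outside these lists. Zma1158 (GRMZM2G430849) was at 1.27, 2.77 and 0.999 RPKM in HA and 256, 253 and 433 RPKM in HB, a log2 difference of -7.21 (SE 0.54, limma adjusted p = 1.53e-07). CBL10 (GRMZM2G116584), of the calcineurin B-like calcium sensors, was at 0.578, 2.52 and 0.357 RPKM in HA and 61.2, 49.3 and 69.8 RPKM in HB, a log2 difference of -5.41 (SE 0.58, limma adjusted p = 3.34e-06). kin1 (GRMZM2G158394) was at 149.6, 198 and 156 RPKM in HA and 13.3, 11.2 and 5.58 RPKM in HB, a log2 difference of 4.07 (SE 0.60, limma adjusted p = 5.61e-05). AGA3b (GRMZM2G037265) averaged 1.99 ± 2.81 against 31.7 ± 9.97 RPKM, a log2 difference of -4.26 (adjusted p = 1.8e-05). That the leaves did not overlap in these 4 genes was required by the rule that named them.

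A further set of genes was close to silent in one leaf. In 38 genes all 3 HA libraries were under 1 RPKM and all 3 HB libraries at 5 RPKM or more, and in 30 genes the reverse held. The first set holds 6 genes with a symbol, icl1, mas1, ALDH12 and m21, described above, the transcription factor bHLH116 (GRMZM2G042895) at 0.367 ± 0.26 against 18.4 ± 20.6 RPKM, and gol1 (GRMZM2G080079) at 0.512 ± 0.231 against 12 ± 1.57 RPKM. The second also holds 6, MADS15, MYBR47, MYBR87 and GBSSIIa, described above, the transcription factor bZIP61 (GRMZM2G137046) at 7.81 ± 2.24 against 0.443 ± 0.205 RPKM, and the hairpin gene of a microRNA, MIR169a, at 8.41 ± 1.48 against 0.406 ± 0.404 RPKM, for which these libraries do not measure the mature microRNA. Of these, gol1 and bZIP61 were chosen after their values were seen. In the ear leaf, none of the 38 genes reached a mean of 5 RPKM and 13 had a mean under 1 RPKM, while 7 of the 30 had a mean of at least 5 RPKM.

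The ear leaf lay between the other leaves for most called genes and nearer to the upper leaf. Its mean was between the HA and HB means in 87.5% of the genes called higher in HA and in 88.6% of those called lower, against 62.5% of all genes tested, and it was nearer to HA in 77% and 78.8%, against 67.5%. PEPC1, at 4302, 3782 and 3824 RPKM in HE, is such a gene, and sps1, at 307, 256 and 232 RPKM, is another. These shares are a description, since HA and HB enter both measures.

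Whether the ear leaf departs from the midpoint of HA and HB was tested directly, and 329 genes (1.55%) were called, 130 (0.614%) above and 199 (0.939%) below the midpoint, with 3114 genes at an unadjusted p under 0.05. These counts are not firm, since leaving out any HE library, replicate 1, 2 or 3, left only 59, 55 or 66 genes called. Without HA replicate 1 or 2 there were 189 or 211, without HB replicate 2 or 3 there were 174 or 156, and without HB replicate 1 there were 423. CKX5 was far below the midpoint at 0.27, 0.247 and 0.813 RPKM in HE, lower than in either other leaf, a log2 departure of -3.65 (SE 0.53, limma adjusted p = 0.00275). GH3 (GRMZM2G378106), of a family that conjugates auxin to amino acids, was at 23, 20.1 and 19.5 RPKM in HA, 0.887, 2.51 and 2.4 RPKM in HE and 41.7, 24.8 and 26.2 RPKM in HB, a departure of -3.47 (SE 0.43, limma adjusted p = 0.00158). cko2 (GRMZM2G050997), a further cytokinin oxidase, averaged 7.96 ± 2.42 RPKM in HE against 42.8 ± 11.7 in HA and 20.7 ± 0.814 in HB, a departure of -1.86 (SE 0.21, limma adjusted p = 0.000776). The ear leaf values of these genes were below both other leaves, and the departure of CKX5 was -4.41 or -3.15 with 0.1 or 1 added to RPKM.

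mas1, with a departure of -3.7 (SE 0.24, limma adjusted p = 8.09e-07), belongs to the genes that only the lower leaf had at an appreciable level, as does icl1, called with an adjusted p of 1.41e-05 (limma). Above the midpoint were m4, with 71.6, 93.5 and 84.1 RPKM in HE and a departure of 1.62 (SE 0.26, limma adjusted p = 0.00557), MADS15 with 1.59 (SE 0.21, limma adjusted p = 0.00206) and RADIALIS with 1.72 (SE 0.22, limma adjusted p = 0.0019). MYBR87 had a departure of 1.77 (SE 0.29, limma adjusted p = 0.0061) and MYBR41 of 1.62 (SE 0.31, limma adjusted p = 0.0166). Those last calls were lost without single ear-leaf libraries, with an adjusted p of 0.0614 for MYBR87 without HE replicate 1, and of 0.0837, 0.0834 and 0.077 for MYBR41 without HE replicate 1, 2 and 3.

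The difference between upper and lower leaf was also set against that in the groups titled low density, as (HA minus HB) minus (LA minus LB). The treatment label of the LA libraries gives high plant density against their titles, so each of these values carries that conflict. For 2409 genes (11.4%) the difference itself differed, 1081 (5.1%) more positive and 1328 (6.27%) more negative at high density. Single libraries moved this count, to 1155 without LA replicate 2, 1376 without HA replicate 1, 1387 without HB replicate 3, 1344 without LB replicate 3 and 3772 without LB replicate 2. LB replicate 2 correlated with the other LB libraries at 0.954 and 0.957, and they correlated with each other at 0.983. Its correlation with a library of LE, the ear leaf titled low density, was higher, at 0.966.

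PEPC1 was high in LA and LB alike, at 6486, 4659 and 6016 and 3881, 2063 and 5264 RPKM, so that its upper-lower difference was larger at high density by a log2 of 2.69 (SE 0.46, limma adjusted p = 0.00278). The lower leaf at high density thus stood apart from the other groups of this gene. SGR2 was at 4.7, 4.08 and 4.32 RPKM in LA and 6.44, 7.63 and 4.2 RPKM in LB, far below HB, with a log2 change in the difference of -3.24 (SE 0.39, limma adjusted p = 0.000325). The same change was 1.85 (SE 0.21, limma adjusted p = 0.000215) for sps1, at 325 ± 41.9 RPKM in LA and 243 ± 23.6 RPKM in LB. For mas1 it was -7.27 (SE 0.40, limma adjusted p = 4.43e-08), or -8.25 and -6.58 with 0.1 and 1 added to RPKM, and icl1 was called in the same direction (limma adjusted p = 5.31e-07). LB stood at 0.16, 0.458 and 0.054 RPKM for icl1 and 0.209, 0.503 and 0.0265 RPKM for mas1, close to 0 as in LA.

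Among the named genes, further large negative values were those of ALDH12 at -5.79 (SE 0.92, limma adjusted p = 0.00188), CBL10 at -4.06 (SE 0.82, limma adjusted p = 0.00659) and Zma1158 at -3.69 (SE 0.77, limma adjusted p = 0.00777). In Zma1158 the LB libraries were spread widely, at 20.7, 116 and 22.8 RPKM. Large positive values were those of MYBR87 at 3.75 (SE 0.47, limma adjusted p = 0.000468), MYBR47 at 3.23 (SE 0.50, limma adjusted p = 0.00175), RADIALIS at 3.1 (SE 0.36, limma adjusted p = 0.000215) and MIR169a at 2.86 (SE 0.71, limma adjusted p = 0.018). The call for MIR169a was lost without LB replicate 3, with an adjusted p of 0.0508. With 0.1 or 1 added to RPKM the changes became 4.01 or 2.27 for MIR169a, 4.38 or 3.33 for MYBR87 and -6.52 or -5.23 for ALDH12.

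By list, plastid gene expression had 13 of 20 tested members called more positive and 0 more negative. Photosystems and electron transport had 6 and 1 of 15, and the C4 shuttle 6 and 0 of 15. NAC factors had 0 and 5 of 16, and WRKY factors 0 and 6 of 18. Over all genes tested the shares were 5.1% more positive and 6.27% more negative. The lists given here are some of the 42. For other genes the change in the difference was not called, which does not show that the gradients are equal. MADS15 averaged 51.2 ± 1.31 RPKM in LA and 0.65 ± 0.0385 RPKM in LB, a change in the difference of -0.21 (SE 0.34, limma adjusted p = 0.757), or 0.041 after quantile normalization, and m20 averaged 6.23 ± 2.93 and 38.9 ± 1.74 RPKM, a change of -0.54 (SE 0.36, limma adjusted p = 0.37). Without LA replicate 3 the change for m20 was called, at -0.99 (limma adjusted p = 0.00819).

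**Figure D5:**
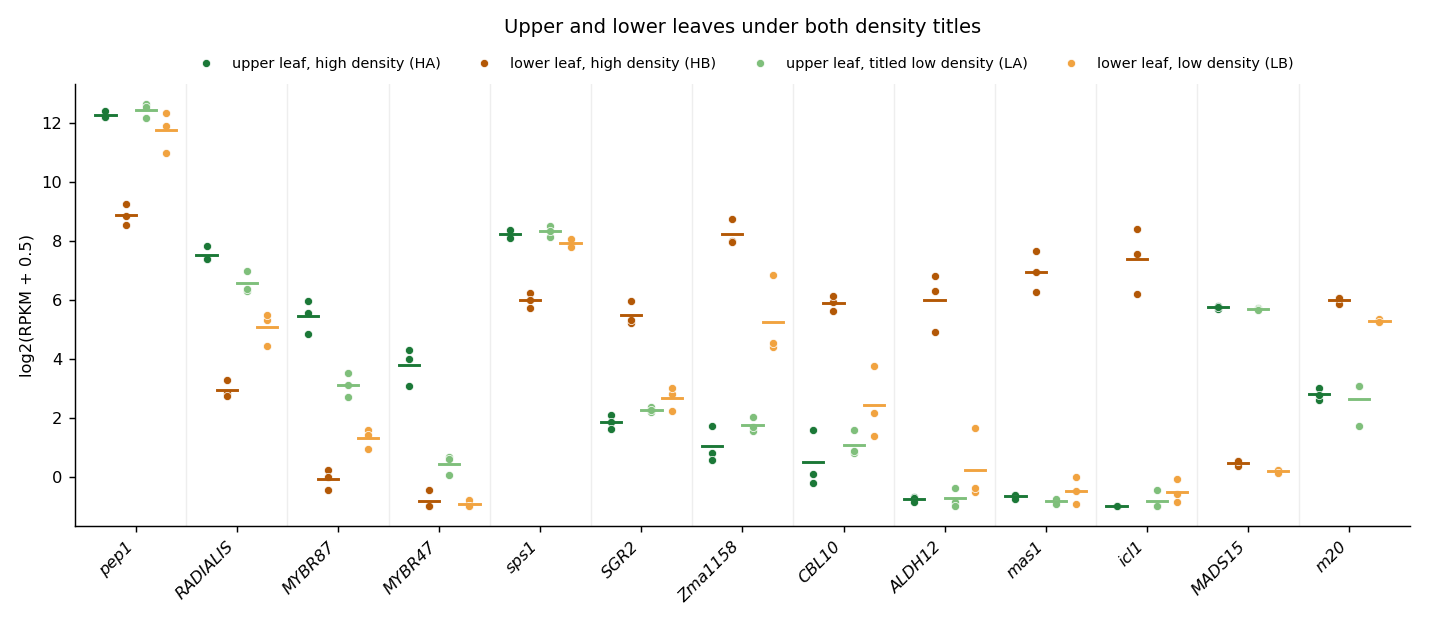
Level of 13 genes as log2(RPKM + 0.5) in each library of the upper and lower leaves at high density (HA, HB) and under the low density titles (LA, LB), with points for libraries and bars for means; the treatment label of LA conflicts with its title. For pep1, SGR2, icl1 and mas1 the HB libraries stand apart from the other groups, while MADS15 and m20 separate upper from lower leaves under both titles.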

How the data were processed

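The authors deposited RPKM per gene model and library; per the submitters' processing notes the tools were Trimmomatic 0.35, HISAT 0.1.6 and HTSeq 0.6.1 and the build B73 RefGen_v3. The RPKM formula, gene lengths, strandedness and read totals are not given in the sources used here, so low values carry unknown counting error. RPKM is relative to each library's total, so a few abundant genes can shift all others. A limma model (version 3.58.1, R 4.3.3) of log2(RPKM + 0.5) held 6 group means over all 18 libraries and an intensity trend; its 2-sided p-values were adjusted by Benjamini-Hochberg over 21184 genes. With 3 libraries a side, exact permutation reaches no p below 0.1.

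Names came from RefSeq symbols and synonyms (assembly Zm-B73-REFERENCE-NAM-5.0), matched to 17838 gene models, of which 489 matched more than 1 row; the builds differ, so no positions are given. That table held no descriptive names, so 42 lists were rebuilt from symbols and no promoter motifs were searched. Named genes are the 10 largest called differences in each direction with a symbol, at least 5 RPKM and no overlap, up to 3 called members per list and direction, the 5 largest of the other comparisons, and selected C4, Rubisco, glyoxylate and stay-green genes; not all are printed. Members and lists were chosen with earlier results of these data known. Replicate numbers in the titles were not treated as pairs. Alternatives changed the pseudocount (0.1, 1), filter (none, 5 RPKM), scaling, trend, block and libraries.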

Additional observations from a re-analysis of the deposited data

Results flagged for a closer look

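The difference between upper and lower leaf itself differed between the density titles, by the interaction term of the limma fit, for 2409 genes (11.4% of those tested) and for 57 of the 121 genes named in the text. The named genes were chosen partly for large values in this comparison and in HA minus HB, so nothing is read from their count. Each value here is the log2 difference HA minus HB less the difference LA minus LB, and the treatment label of LA conflicts with its title. For 37 of the 57 genes the call was kept in every alternative run. Among these, values were positive for C4 shuttle and light reactions (PEPC1 2.69, mdh6 1.52, psbs1 1.96, PGR5 1.90 and PSA2 0.94), other chloroplast or antioxidant genes (prpo1 0.89, ORRM1 1.05, cat2 1.30, gor1 0.74 and fsd1 1.13), sugar and nitrogen genes (sps1 1.85, ss1 1.23 and NNR1 1.01), regulators (MYBR87 3.75, MYBR47 3.23, RADIALIS 3.10, MYBR41 2.27, ZCN7 1.83 and ZCN8 1.81) and surface, defence and transport genes (CER1 1.98, BX4 1.66, BX5 1.61, pip2b 1.65 and HAK11 2.28). They were negative for breakdown and remobilisation genes (icl1 -8.09, mas1 -7.27, ALDH12 -5.79, SGR2 -3.24 and lls1 -1.02), regulators and signalling genes (NAC75 -1.07, WRKY104 -2.91, ZmHK1 -1.47 and CBL10 -4.06) and other genes (Agp2 -2.17, PAPhy -2.71, ysl12 -0.87 and Zma1158 -3.69). For icl1, at 0 in all HA libraries, the value rests on the amount added to RPKM and was -9.80 with 0.1 and -7.23 with 1; that of WRKY104 was -3.88 and -2.38.

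The other 20 genes lost the call in at least 1 alternative. Their values were MIR169a 2.86, psy2 1.91, GS1-5 1.70, gpa1 1.48, Ppdk1 1.46, NIR 1.04, ChlI 1.03 and CRS2 0.87 on the positive side, and gln5 -0.60, fnr1 -0.77, VTE2-1 -0.85, Atg7 -0.98, hppd1 -1.03, PYL11 -1.07, NAC61 -1.08, sh1 -1.32, m4 -1.55, gol1 -2.15, GH3 -2.75 and AGA3b -2.80 on the negative side. Without LB replicate 3 the call was lost for AGA3b, fnr1, gpa1, ChlI, psy2, VTE2-1, CRS2, Atg7, NIR, GS1-5, sh1, NAC61, m4, PYL11, Ppdk1, GH3, MIR169a and gol1, with adjusted p from 0.0508 to 0.113 (limma). Without LA replicate 2 it was lost for AGA3b, fnr1, gpa1, ChlI, psy2, VTE2-1, CRS2, Atg7, NIR, gln5, sh1, NAC61, m4, PYL11, Ppdk1 and gol1, at 0.0536 to 0.123. Without HA replicate 1 it was lost for 11 genes, AGA3b, fnr1, hppd1, Atg7, NIR, GS1-5, gln5, sh1, m4, PYL11 and Ppdk1, and without HA replicate 3 for 13, AGA3b, fnr1, gpa1, ChlI, Atg7, NIR, GS1-5, sh1, NAC61, m4, PYL11, Ppdk1 and gol1. Leaving out HB replicate 2 removed AGA3b, fnr1, gpa1, ChlI, Atg7, NIR, GS1-5, sh1, NAC61, PYL11 and Ppdk1, and leaving out HB replicate 3 removed AGA3b, fnr1, gpa1, ChlI, hppd1, Atg7, GS1-5, gln5, sh1, NAC61, PYL11, Ppdk1 and gol1. Without LB replicate 1 the lost calls were those of AGA3b, fnr1, gpa1, ChlI, Atg7, NIR, GS1-5, sh1, Ppdk1 and gol1. Fewer were lost without HA replicate 2 (fnr1), HB replicate 1 (NIR and sh1), LA replicate 1 (fnr1, GS1-5 and sh1) or LA replicate 3 (AGA3b, NIR, GS1-5 and Ppdk1). With only the compared libraries 11 of the 20 were not called, with no filter 8 (adjusted p up to 0.334, that of Ppdk1), with median-ratio rescaling 3, without the trend 3, with quantile normalization m4 alone and with a pseudocount of 0.1 AGA3b alone.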

How the results depend on the processing

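Counts of genes called between HA and HB stayed within 1.5 times the reported ones in every alternative, from 7459 to 8759 in all when a library was left out, 2804 to 3265 higher and 4655 to 5494 lower, and 6161 genes were called in every alternative that tested them, as the 5 RPKM filter did not test all. With a replicate block over 18 libraries 9747 genes were called, 3378 higher and 6369 lower, and with a block over the HA and HB libraries alone 8232, 2880 higher and 5352 lower. Same-numbered HA and HB libraries deviated together at correlations of -0.05, 0.04 and 0.10, and not every library correlated best with its own number. Of 15 such group pairings, HA against HE (0.14 to 0.19) and HA against LB (0.19 to 0.26) were the 2 with every correlation over 0.1, and the other pairings that enter the ear-leaf and density comparisons were not, so the libraries were taken to share only a number. Among the genes named, the block ended only the call of cab-m1, in the HA and HB libraries alone (adjusted p = 0.0711).

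The ear leaf's departure from the midpoint was called for 214 genes (71 above) with no filter, 217 (78 above) after median-ratio rescaling, 509 (243 above) after quantile normalization and 655 (361 above) with the replicate block, with 76 above without the trend and 212 above with only the compared libraries; leaving out a library gave 55 to 423, 15 to 168 above and 37 to 255 below. The difference between densities gave 1475 genes, 623 more positive and 852 more negative, with only the compared libraries, and 1155 to 3772, 575 to 1540 and 580 to 2232, when a library was left out; the replicate block gave 3121, 1390 and 1731. The cause was not tested.

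Among genes named, the log2 difference of NADP-ME reversed to 0.037 after median-ratio rescaling and ranged from -0.29 to 0.15 with a library left out, that of rbcS GRMZM2G098520 ranged from -0.0031 to 0.44, and the change between densities of MADS15 reversed to 0.041 after quantile normalization; none was called. Of the values recomputed for the 121 genes named, 3146 kept direction and call, 137 lost a call, 1 gained one and 5 reversed. Absolute depth is unknown, which limits genes near 1 RPKM most.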

Other observations

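Among the most abundant transcripts of the upper leaf were a pair of genes for thiamine thiazole synthase, which makes the thiazole part of vitamin B1 in plastids; they were chosen after their values were seen. thi1-2 (GRMZM2G074097) was at 3393, 2589 and 4828 RPKM in HA, 1621, 1597 and 1859 RPKM in HE and 731, 367 and 487 RPKM in HB, a log2 difference of 2.78 (SE 0.34, limma adjusted p = 1.03e-05). thi1 (GRMZM2G018375) was at 2091, 1751 and 2824 RPKM in HA, 1444, 1354 and 1491 RPKM in HE and 544, 293 and 500.1 RPKM in HB, a log2 difference of 2.34 (SE 0.31, limma adjusted p = 2.37e-05). In both genes all HA libraries lay above all HB libraries, and the ear leaf means lay between the means of the other leaves.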
